A study of Mus musculus with 7 samples.

Results

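The clustered histone genes encode the proteins that package DNA into nucleosomes, and 65 of the 23212 genes named in the study's merged transcript set carry their names, beginning Hist1h, Hist2h, Hist3h or Hist4h. Linker histone H1 accounts for 6 of them and the core histones for 59, with 16 H2A, 18 H2B, 12 H3 and 13 H4 genes. Of the 65, 64 are annotated as coding in GENCODE M21, and Hist3h2bb-ps, among the H2B genes, is not. RNA was sequenced from wild-type primary B cells of C57BL/6 mice. The libraries were given anti-IgM and BAFF together, anti-IgM alone or BAFF alone for 8 h and for 30 h, and 1 library was unstimulated at 0 h. Anti-IgM crosslinks the B cell antigen receptor, and BAFF is a survival factor of B cells. With 1 library for each of the 7 conditions the differences below carry no test, and their intervals cover counting error only. No library without a stimulus was made at 8 h or 30 h, so stimulus and time in culture cannot be told apart from each other in the comparisons with 0 h. The organ of origin and the purification of the cells are not given in the sources used here.

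Core histones form the protein spool of the nucleosome, and H1 binds the DNA between spools. Most of these genes are transcribed in S phase, and their messenger RNA ends in a conserved stem-loop in place of a poly(A) tail. Some histone genes, among them several H1, H2A and H2B genes, can also give longer polyadenylated RNA when cells leave the cycle or differentiate. The libraries were made with poly-dT primers, per the labels' protocols, so the RNA that was measured is mostly of the polyadenylated kind, and the level of histone RNA without a tail was not measured.

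A stem-loop was searched for after the coding end of each gene, as GG and 4 bases, then T and 3 bases, then the reverse complement of the first 6. It was found in 43 of the 65 genes in GENCODE M21 transcripts, a share of 66.2%, against 1.90% of 21810 other protein-coding genes whose whole transcripts were searched. The sequences below are of genes on which the results turn: a linker gene, a gene present throughout, and 4 genes listed at 30 h and at no earlier time. They are on the coding strand, build mm10, and the capitals mark the stem. A stem-loop match is a description of the letters and not a tested site.
Hist1h1c (chr13:23739512-23739527, plus strand): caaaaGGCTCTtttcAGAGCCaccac
Hist1h4i (chr13:22040966-22040981, minus strand): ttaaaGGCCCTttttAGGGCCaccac
Hist1h2bj (chr13:22043638-22043653, plus strand): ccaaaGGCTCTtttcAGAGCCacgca
Hist1h3c (chr13:23745047-23745062, minus strand): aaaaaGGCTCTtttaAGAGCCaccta
Hist1h4b (chr13:23757366-23757381, plus strand): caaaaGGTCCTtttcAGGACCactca
Hist1h4d (chr13:23581950-23581965, plus strand): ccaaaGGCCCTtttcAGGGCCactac
The H1, H2B and H3 genes shown share the stem arm GGCTCT, and the H4 genes have GGCCCT or GGTCCT. The coordinates span the 16 bases from stem to stem and lie in the 3′ UTR, 27 to 39 bases after the coding end in these 6 genes.

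Few of these genes were seen at all. A gene was listed in a library when Cufflinks assembled at least 1 transcript piece over its exons on its strand, and its level is the summed FPKM of those pieces, that is fragments per kilobase per 1000000 mapped. Of the 65 genes, 20 were listed in any library and 45 in none, while 11689 of all 23212 named genes were listed in any library. The number listed was 7 with both stimuli, 9 with anti-IgM and 9 with BAFF at 8 h, then 15, 16 and 14 in the same order at 30 h, against 13 in unstimulated cells. Linker genes made up 1, 2 and 1 of these at 8 h, then 3, 2 and 1 at 30 h, against 3 in unstimulated cells. The lowest counts were at 8 h and the highest at 30 h, for every stimulus. Of all named genes, 10209, 10494 and 10349 were listed at 8 h with both stimuli, anti-IgM and BAFF. At 30 h it was 10448, 10487 and 10413, against 10647 in unstimulated cells. The library with the most mapped reads, anti-IgM at 8 h with 28.6 M, was among those with few listed, and the others had 18.7 to 24.1 M. No piece rested on fewer than 9 reads in BAFF at 30 h or 10 in the other libraries, so a gene that is not listed can still have had reads. Of 10 B cell markers 9 were listed in each library, all but Cd79a, and neutrophil markers were at 0 of 8 in each. The summed B cell marker level was 1326 FPKM with both stimuli, 1081 with anti-IgM and 2303 with BAFF at 8 h, then 1780, 1882 and 2607 FPKM at 30 h, against 2290 FPKM in unstimulated cells. With 1 FPKM added, 4, 4 and 2 of the 9 were at least 2-fold lower than in unstimulated cells, with separate counting intervals, at 8 h and 4, 4 and 0 at 30 h. Among all genes compared, 9.46%, 11.1% and 4.85% were lower in this way at 8 h and 8.51%, 7.89% and 4.72% at 30 h.

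**Figure D1:**
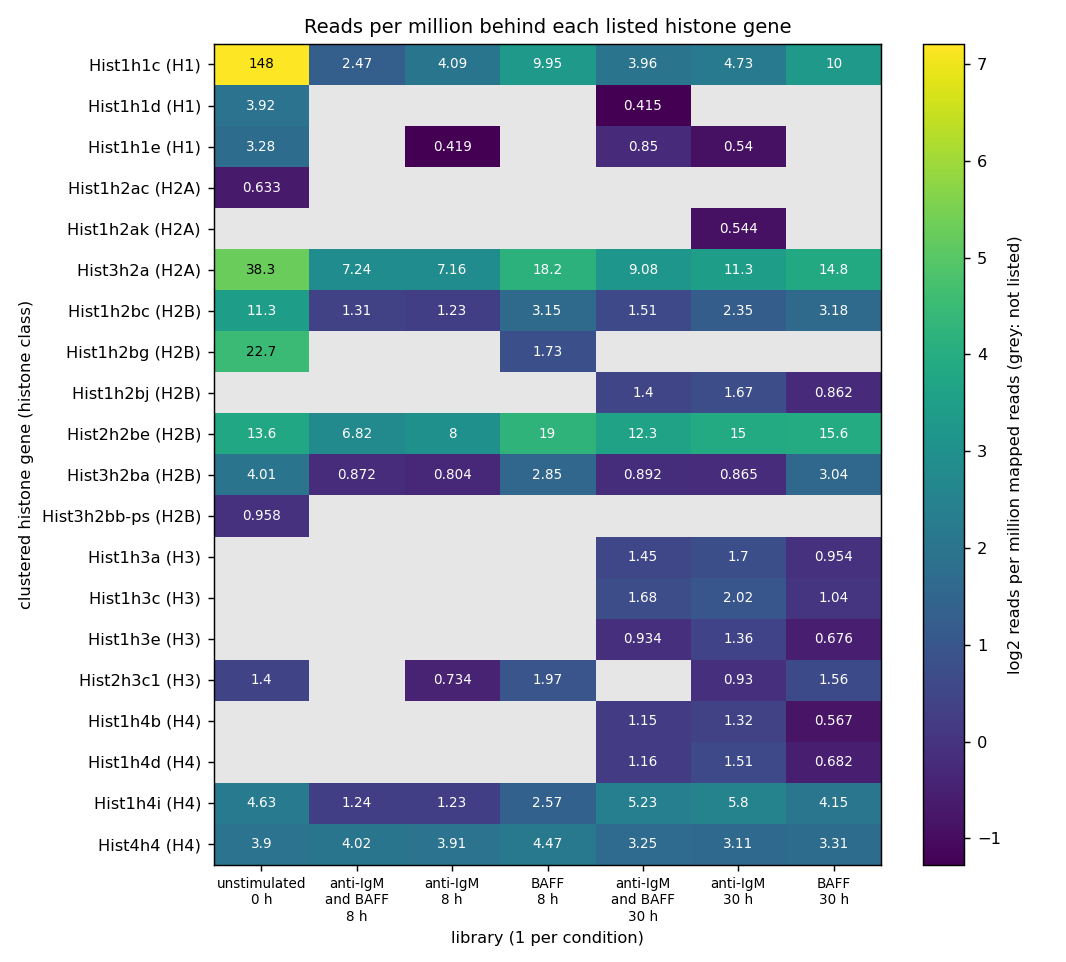
RPM, that is reads per 1000000 mapped reads, behind each of the 20 listed histone genes (rows, by histone class) in the 7 libraries (columns, 1 library per condition), with colour on a log2 scale and grey for genes not listed. Hist1h1c stands at 148 in the unstimulated library and at 10.04 or less in the 6 stimulated ones, and 6 rows are filled in all 3 libraries of 30 h and in no other.

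Most of the linker FPKM in unstimulated cells came from Hist1h1c, which encodes histone H1.2 and lies at chr13:23738807-23740367 on the plus strand. Its level was 2.03 FPKM with both stimuli, 3.17 with anti-IgM and 7.61 with BAFF at 8 h, then 2.97, 3.69 and 7.63 FPKM in the same order at 30 h, against 96.7 FPKM in unstimulated cells. Unstimulated cells were thus far above every stimulated library, with no overlap of the intervals, and BAFF alone was the highest of the stimulated conditions at both times. On the log2 scale with 1 FPKM added, the differences from unstimulated cells were -5.01, -4.55 and -3.50 at 8 h and -4.62, -4.38 and -3.50 at 30 h. The reads behind these values, recovered from FPKM and its interval, were 46.8, 117 and 186.5 at 8 h and 95.5, 109.5 and 206 at 30 h, against 3238 in unstimulated cells. In every library the piece held the stem-loop and ran on for 785 to 1031 bases past it, so what was measured was the longer form of the RNA. Hist1h1c gave 100%, 67.2% and 100% of the H1 FPKM at 8 h with both stimuli, anti-IgM and BAFF, then 49.9%, 71.1% and 100% at 30 h, against 91.5% in unstimulated cells.

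Markers of other cell types differed between the same libraries. Of 15 macrophage marker names, in which Emr1 is the older name of Adgre1, 8 to 12 were listed in the stimulated libraries and 13 in the unstimulated one, and their summed level was 31.0 to 133 FPKM against 325 FPKM. C1qa, a complement component of macrophages, was not listed in any 8 h library and had 1.77 to 5.08 FPKM at 30 h, against 40.3 FPKM in unstimulated cells, and Cd68 was not listed in any library. Some other macrophage markers were near or above their unstimulated level at 30 h. Emr1, which encodes the macrophage surface protein F4/80, had 31.2 FPKM with both stimuli, 25.8 with anti-IgM and 48.2 with BAFF at 30 h, against 32.8 FPKM in unstimulated cells, and it had 5.44 to 11.3 FPKM at 8 h. Cd5l had 11.6, 22.6 and 22.0 FPKM at 30 h, against 12.3 FPKM, and Marco had 3.46, 9.57 and 4.51 FPKM, against 1.93 FPKM. Macrophage markers listed in both libraries were counted by the same rule against unstimulated cells. At 8 h, 6 of 8, 6 of 8 and 8 of 9 were lower with both stimuli, anti-IgM and BAFF. At 30 h, 6 of 11, 7 of 12 and 7 of 12 were lower, and 1 was higher, with anti-IgM. Among all genes compared, 9.46%, 11.1% and 4.85% were lower at 8 h and 8.51%, 7.89% and 4.72% at 30 h. The summed level of the 10 erythroid markers was 0 to 48.1 FPKM in stimulated libraries, against 221 FPKM in the unstimulated one, nearly all from the globin gene Beta-s. At 30 h the macrophage sum was 81.0 to 133 FPKM, above its 31.0 to 39.5 FPKM at 8 h, but it mixes markers that moved differently. Vcam1 had 2.37 to 5.23 FPKM at 30 h, against 48.6 FPKM in unstimulated cells. Slc40a1 had 2.09 to 4.80 against 46.6 FPKM, and C1qc 1.83 to 5.88 against 29.5 FPKM. Hist1h1c had 2.97 to 7.63 FPKM at 30 h. The part of these cells in the histone levels was not tested, and in bulk samples fewer cells of a type and less RNA per cell cannot be told apart.

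The other listed linker genes were sparse. Hist1h1e, which encodes H1.4, had 1.55 FPKM with anti-IgM at 8 h, 1.82 with both stimuli and 1.504 with anti-IgM at 30 h, against 5.85 FPKM in unstimulated cells, and was not listed elsewhere. Its 8 h level is wholly from a piece with no coding base that ends 1260 bases past the stem-loop, where exons of Hist1h2be and the pseudogene Gm11398 lie on the same strand. Its listing and its lower count with anti-IgM at 8 h rest on that piece alone. In unstimulated cells a piece of this kind, ending 1289 bases past the stem-loop, gave 1.43 of the 5.85 FPKM. Hist1h1d, which encodes H1.3, had 1.16 FPKM from 10 reads with both stimuli at 30 h, against 3.12 FPKM from 86 reads in unstimulated cells. The remaining linker genes, Hist1h1a, Hist1h1b and the testis gene Hist1h1t, were not listed in any library.

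Among core histone genes present in unstimulated cells, 3 H2B genes had lower FPKM in every stimulated library that listed them, and the size of the gap differed with the stimulus. Hist1h2bc, an H2B gene, had 2.72, 2.76 and 6.65 FPKM at 8 h with both stimuli, anti-IgM and BAFF, then 3.45, 5.21 and 6.93 FPKM at 30 h, against 21.4 FPKM in unstimulated cells. Every stimulated library was below the unstimulated one, and BAFF alone was the highest of the stimulated at each time. Hist3h2ba, another H2B gene, had 3.08, 2.61 and 8.80 FPKM at 8 h and 3.52, 3.26 and 10.3 FPKM at 30 h in the same order, against 12.6 FPKM in unstimulated cells. Here the libraries with anti-IgM were low at both times, and those with BAFF alone were close to the unstimulated level. Hist1h2bg, an H2B gene named after its values were seen, had 1.26 FPKM from 32.4 reads with BAFF at 8 h, against 12.3 FPKM from 497 reads in unstimulated cells, and was not listed in the other 5 libraries. Its pieces ran 1187 and 1608 bases past the stem-loop.

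Hist1h4i, an H4 gene at chr13:22040816-22041352 on the minus strand, was low at 8 h and back at 30 h with anti-IgM, alone or with BAFF. It had 2.66, 2.66 and 5.07 FPKM at 8 h with both stimuli, anti-IgM and BAFF, then 10.7, 10.7 and 7.41 FPKM at 30 h, against 9.96 FPKM in unstimulated cells. At 30 h both libraries with anti-IgM were slightly above the unstimulated level, and BAFF alone was below it, all with overlapping counting intervals. Against 8 h, the 30 h level was higher by 1.68 with both stimuli and by 1.67 with anti-IgM on the log2 scale. With BAFF alone that difference was 0.47, with overlapping intervals. Its pieces held the stem-loop in all 7 libraries and ended 298 to 398 bases past it. Hist2h2be, an H2B gene whose annotated transcript has no stem-loop match, varied least by reads among the genes present throughout apart from Hist4h4, with 6.82, 8.00 and 19.0 RPM at 8 h and 12.3, 15.003 and 15.6 RPM at 30 h, against 13.6 in unstimulated cells. Its 8 h RPM values with anti-IgM, alone or with BAFF, were the lowest. In FPKM it had 6.85, 3.37 and 8.05 at 8 h and 4.996, 6.19 and 6.43 at 30 h, against 5.73 in unstimulated cells. The 6.85 FPKM with both stimuli at 8 h is the sum of 2 side-by-side pieces, of 3.23 and 3.62 FPKM. Every other library had a single piece, so that sum is not comparable with the other levels. By RPM, Hist2h2be with both stimuli was below unstimulated cells at both times.

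Levels of 2 further core genes depended on where their pieces lay. Hist4h4, an H4 gene, had 117, 89.3 and 130.5 FPKM at 8 h with both stimuli, anti-IgM and BAFF, then 24.5, 90.9 and 98.3 FPKM at 30 h, against 11.9 FPKM in unstimulated cells. Its RPM values were 4.02, 3.91 and 4.47 at 8 h and 3.25, 3.11 and 3.31 at 30 h, against 3.90 in unstimulated cells. The gene thus differed widely in FPKM and little in reads. None of its pieces held a coding base, and all ended 1783 to 1906 bases past the stem-loop. They were 226 to 346 bases long in stimulated libraries, against 542 bases in the unstimulated one, and the length over which Cufflinks counts fragments was 33.7 to 132 bases, against 327 bases. Hist3h2a, an H2A gene, had 5.03 to 21.9 FPKM in stimulated libraries, against 7.79 FPKM in the unstimulated one, where a single piece of 5131 bases ran into exons of Trim17 on the same strand. By RPM it was 7.16 to 18.2 in stimulated libraries, against 38.3 in the unstimulated one. The 4 libraries in which its FPKM was above the unstimulated level, BAFF at 8 h and all 3 of 30 h, were thus below it by RPM, and the other 2 were below it in both units.

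**Figure D2:**
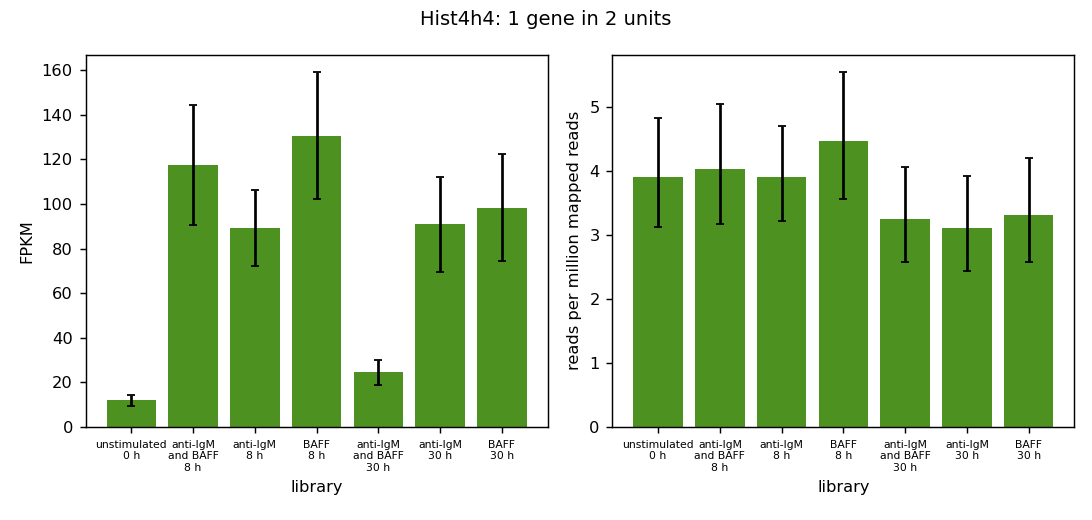
Hist4h4 in FPKM (left) and in RPM (right) in the 7 libraries, with bars for the value of the 1 library of each condition and lines for its counting interval. FPKM lies between 24.5 and 130.5 in stimulated libraries and at 11.9 in the unstimulated one, while RPM lies between 3.11 and 4.47 throughout.

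A group of core histone genes was listed at 30 h alone. The 6 genes Hist1h2bj, Hist1h3a, Hist1h3c, Hist1h3e, Hist1h4b and Hist1h4d, singled out after their values were seen, were listed in all 3 libraries of 30 h and in none at 0 h or 8 h. Across all genes listed in any library, 28 of 11689 had that pattern, which is 0.24%. Their levels were 5.50 to 9.46 FPKM with both stimuli, 5.20 to 10.9 FPKM with anti-IgM and 4.41 to 6.49 FPKM with BAFF. Hist1h3c, the H3 gene with the most reads, had 40.5 reads with both stimuli, 46.6 with anti-IgM and 21.3 with BAFF. Hist1h4d, an H4 gene, had 28.0, 35.0 and 14.0 reads in the same order, and Hist1h2bj, an H2B gene, had 33.8, 38.6 and 17.7. In all 6 genes RPM was highest with anti-IgM and lowest with BAFF alone, with overlapping counting intervals gene by gene.

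Summed over the 6 genes, there were 7.78 RPM with both stimuli, with a 95% exact Poisson interval of 6.71 to 8.98. The sums were 9.58 with anti-IgM (8.36 to 10.9) and 4.78 with BAFF (3.88 to 5.82). The BAFF sum lay below the interval of each library with anti-IgM. With 10 reads, the usual minimum for a piece, a gene in the 0 h and 8 h libraries would have had 0.349 to 0.533 RPM. All 6 genes were at least 2.05 times the 10-read level of the unstimulated library with both stimuli and 2.90 times with anti-IgM. With BAFF they were 1.24 to 2.27 times that level, and for 3 of the 6 the counting interval reached below it. The 6 genes were picked as listed at 30 h alone, so standing above that level follows in part from the choice. A gene that is not listed may also have had more reads than that, so a difference from 0 h was not measured for any of the 6. These genes have near-identical copies: 10.2% to 73.4% of the 50-base windows of their longest annotated transcripts occur exactly in other genes, mostly histone genes of the same class. For 5 of the 6 the reads were fractional, as reads shared among copies are, so the split between copies is uncertain.

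**Figure D3:**
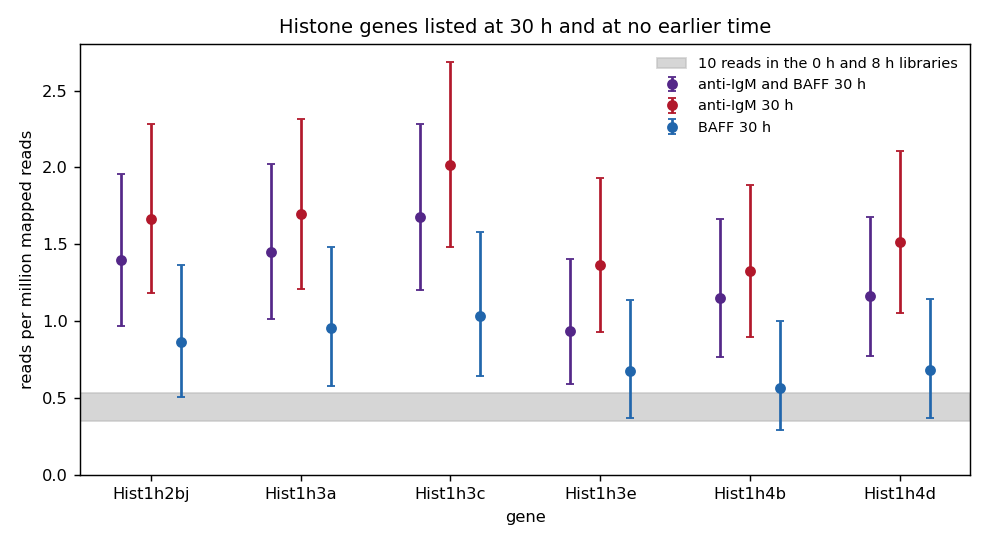
RPM of the 6 histone genes listed at 30 h and at no earlier time, with a point per 30 h library and its 95% exact Poisson interval. The grey band is the level that 10 reads would give in the 0 h and 8 h libraries, 0.349 to 0.533, and the BAFF points of all 6 genes are the lowest.

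These pieces differed from those of the other genes in where they ended. Of the 18 pieces of the 6 genes, 17 ended 16 to 99 bases before the end of the stem-loop and held 83.3% to 100% of the coding bases. The exception was Hist1h4b with anti-IgM, whose piece ended 91 bases past the stem-loop and held it. Antisense to Hist1h4b the annotation has 4930558J22Rik, and whether the library kept strand is not given in the sources used here. No piece of a gene with a stem-loop match ended before the stem-loop end in the unstimulated or the 8 h libraries. Of the 20 pieces that did so at 30 h, 17 were of the 6 genes. Those genes were picked as having no piece at 0 h or 8 h, so this difference between times follows mostly from the choice. At 30 h such pieces held 28.8% of the reads of genes with a stem-loop match with both stimuli, 23.9% with anti-IgM and 11.5% with BAFF. Besides those 6 genes, Hist1h1e with both stimuli and with anti-IgM and Hist1h1d with both stimuli ended before it at 30 h.

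**Figure D4:**
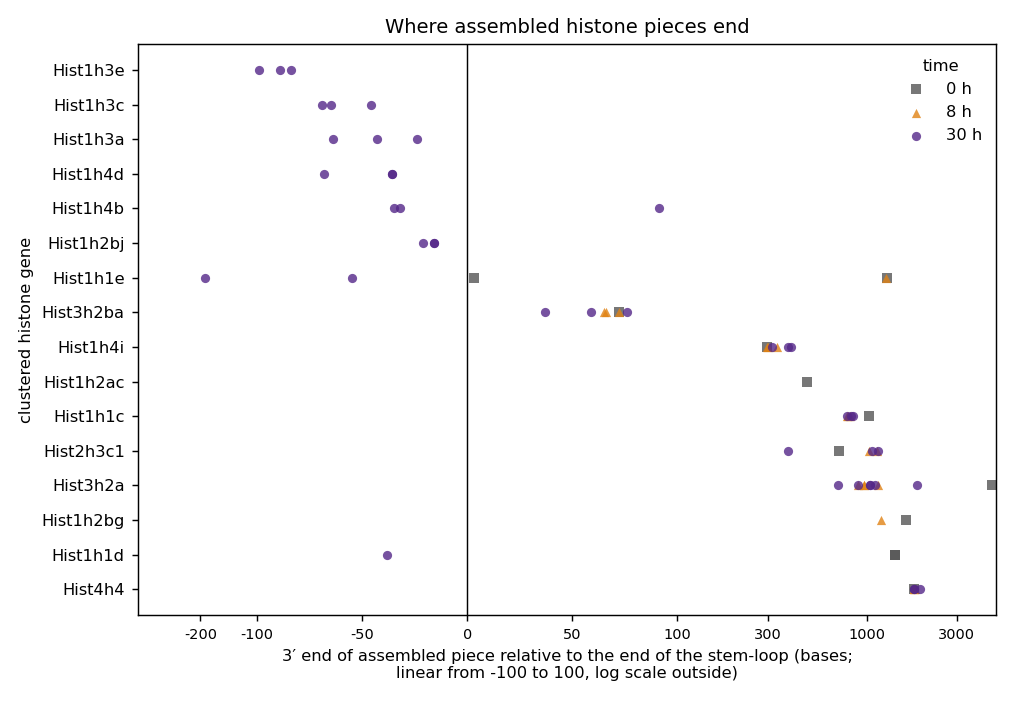
Position of the 3′ end of each assembled piece relative to the end of the stem-loop, in bases, for the 16 listed genes with a stem-loop match, with marker shape and colour for time. Points left of 0 are all from 30 h libraries, and most are of genes picked as listed at 30 h alone. Hist1h1c, Hist1h4i and Hist4h4 end to the right of 0 in all 7 libraries.

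Promoters of a few genes are shown because members moved together. RefSeq gives a promoter for 59 of the 65 genes and for 5 of the 6 genes listed at 30 h alone (build GRCm38.p6). The last 120 bases before the start are printed on the coding strand, with the CCAAT box, the TATAAA motif and the ATTTGCAT octamer, on either strand, in capitals.
Hist1h1c (chr13:23738687-23738806, plus strand): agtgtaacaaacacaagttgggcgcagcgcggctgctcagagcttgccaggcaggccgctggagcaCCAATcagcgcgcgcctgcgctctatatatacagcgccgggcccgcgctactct
Hist1h2bg (chr13:23571280-23571399, plus strand): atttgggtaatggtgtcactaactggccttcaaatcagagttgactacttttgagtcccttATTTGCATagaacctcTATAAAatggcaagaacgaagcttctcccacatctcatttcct
Hist1h3c (chr13:23745522-23745641, minus strand): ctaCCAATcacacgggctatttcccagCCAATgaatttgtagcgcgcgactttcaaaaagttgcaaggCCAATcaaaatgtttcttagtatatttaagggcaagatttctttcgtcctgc
Hist1h4d (chr13:23581448-23581567, plus strand): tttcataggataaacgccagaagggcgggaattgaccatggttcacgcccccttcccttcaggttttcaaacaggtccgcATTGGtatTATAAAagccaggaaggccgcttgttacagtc
In the 250 bases before the start, CCAAT was found in 81.4% of the 59 histone promoters, against 34.5% of 27025 promoters in the table, which include the histone ones. It was in 100% of the H1, H2A and H2B promoters and in 25% of the H4 promoters. TATAAA was in 49.2% against 13.0%, and ATTTGCAT, the octamer, in 22.0% against 1.61%. The octamer matches were in H2A and H2B promoters alone, at 43.8% and 40.0%. Of the 5 promoters of genes listed at 30 h alone, 4 had CCAAT, 1 had TATAAA and none had the octamer, and the 43 promoters of genes never listed had them at 83.7%, 51.2% and 23.3%. These matches describe letters and say nothing on binding.

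Linker and core genes were set side by side by reads over coding bases, per kilobase of coding length per 1000000 mapped reads, which leaves out Hist4h4 and assumes even coverage along a piece. The summed linker density was 1.64 with both stimuli, 2.72 with anti-IgM and 6.54 with BAFF at 8 h, then 4.42, 3.92 and 6.56 at 30 h, against 90.5 in unstimulated cells. The summed core density was 13.3, 12.7 and 40.0 at 8 h and 44.2, 51.3 and 47.5 at 30 h, against 54.3 in unstimulated cells. Linker genes thus stayed low at both times. The core sum was low at 8 h with anti-IgM and near the unstimulated value at 30 h. Genes not listed add nothing to these sums. The core sums at 30 h include the 6 genes picked as listed at 30 h alone, so their level against 0 h and 8 h rests in part on that choice. The ratio of linker to core density was 0.124, 0.215 and 0.164 at 8 h and 0.0999, 0.0763 and 0.138 at 30 h, against 1.67 in unstimulated cells. By summed FPKM the linker genes had 2.03, 4.72 and 7.61 at 8 h and 5.95, 5.20 and 7.63 at 30 h, against 106 in unstimulated cells. Core genes had 139, 107 and 184 FPKM at 8 h and 104, 178 and 182 FPKM at 30 h, against 86.0 FPKM, and without Hist4h4 21.5, 17.3 and 53.0 FPKM, then 79.3, 87.4 and 83.7 FPKM, against 74.1 FPKM.

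**Figure D5:**
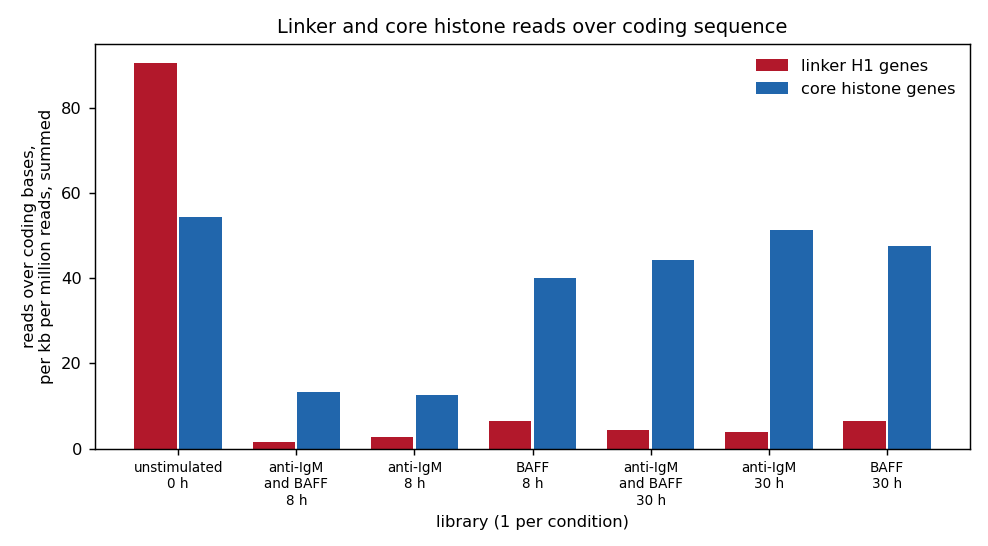
Reads over coding bases per kilobase per 1000000 mapped reads, summed over linker H1 genes and over core histone genes, in the 7 libraries (1 per condition, no error bars). Linker genes stand at 90.5 in the unstimulated library and at 1.64 to 6.56 elsewhere, and core genes stand at 12.7 to 51.3 in stimulated libraries and at 54.3 in the unstimulated one. Genes not listed add nothing to a sum.

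The make-up of the core sum differed. H3 density over coding bases was 9.63 with both stimuli, 12.4 with anti-IgM and 7.03 with BAFF at 30 h, against 0.574 in unstimulated cells, and at 8 h it was 0, 0 and 1.13. H4 density was 14.1, 14.8 and 9.08 at 30 h, against 6.81 in unstimulated cells, with 1.82, 1.82 and 3.56 at 8 h. As sums over listed genes, both classes were thus at their highest at 30 h and, among 30 h libraries, lowest with BAFF alone. Genes not listed add nothing to these sums, so the gap from 0 h and 8 h follows in part from the genes picked as listed at 30 h alone. Hist1h4i, the H4 gene with coding reads in every library, had 7.45, 7.64 and 5.36 at 30 h, against 6.81 in unstimulated cells. H2B density went the other way, with 12.2, 14.9 and 18.7 at 30 h, against 39.0 in unstimulated cells, and H2A had 8.25, 9.29 and 12.7, against 7.94. H2A reads lay mostly in Hist3h2a, and by RPM the class had 9.08, 11.8 and 14.8 at 30 h, against 38.9 in unstimulated cells, the opposite direction. That RPM includes the run-on of the unstimulated Hist3h2a piece into Trim17 exons. Most of the H3 density at 30 h came from the 3 H3 genes listed then and not before. Hist2h3c1, the other listed H3 gene, had 0.888 FPKM with anti-IgM and 1.29 with BAFF at 8 h, then 0.723 and 3.17 FPKM at 30 h, against 1.81 FPKM in unstimulated cells, and all of its 50-base windows occur in other genes.

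Comparisons were counted across all genes with 1 rule. A gene was compared when it was listed in both libraries with at least 1 FPKM in 1 of them, and counted as higher or lower when its FPKM with 1 added was at least 2 times or at most 0.5 times that of the other library, with separate counting intervals. With both stimuli at 8 h, 1 of 7 histone genes was higher and 4 lower than in unstimulated cells, where 12.7% of all genes compared were higher and 9.46% lower. With anti-IgM at 8 h, 1 of 9 was higher and 5 lower, against 11.2% and 11.1% of all genes. With BAFF at 8 h, 2 of 9 were higher and 3 lower, against 6.2% and 4.85% of all genes. The share of lower histone genes was above the background in each, and the lower genes included Hist1h1c and Hist1h2bc every time.

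At 30 h, both stimuli had 0 of 9 histone genes higher and 4 lower than unstimulated cells, against 8.77% and 8.51% of all genes. Anti-IgM had 1 of 9 higher and 4 lower, against 8.94% and 7.89%, and BAFF had 2 of 8 higher and 2 lower, against 5.55% and 4.72%. Over the 6 comparisons, which share the unstimulated library, all 7 higher counts were of Hist4h4 or Hist3h2a, and none was at least 2-fold higher by reads over exons. For Hist3h2a, reads over exons include the run-on of the unstimulated piece into Trim17 exons. Over coding bases it had 17.0 and 12.7 with BAFF at 8 h and 30 h, against 7.46 in unstimulated cells. All 22 lower counts were at least 2-fold lower by reads over exons, which are calculated from the same FPKM. The median log2 difference of histone genes compared was -1.58, -1.43 and -0.47 at 8 h with both stimuli, anti-IgM and BAFF, where all genes had 0.11, 0.04 and 0.12. At 30 h it was smaller, at -0.93, -0.71 and -0.06, where all genes had 0.02, 0.06 and 0.07. Genes listed in 1 library alone are outside these counts: Hist1h2ac and Hist3h2bb-ps were listed in the unstimulated library only, as were 2.71% of genes listed in any library, and Hist1h2ak was listed with anti-IgM at 30 h only, with 12.6 reads.

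Between 30 h and 8 h of the same stimulus the counts of histone genes listed in both lay near those of all genes. With both stimuli, 1 of 7 was higher and 1 lower at 30 h, against 5.93% and 7.46% of all genes. With anti-IgM, 1 of 8 was higher and 0 lower, against 8.5% and 5.87%. With BAFF, 0 of 8 were higher and 0 lower, against 4.02% and 4.85%. The higher gene was Hist1h4i each time, and the lower one was Hist4h4, which had 3.25 RPM at 30 h and 4.02 RPM at 8 h.

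Anti-IgM and BAFF differed most at 8 h. With anti-IgM, 5 of 8 histone genes were lower than with BAFF and 0 higher, against 8.97% lower and 5.31% higher among all genes, and all 8 log2 differences were below 0, with a median of -1.03 against -0.05 for all genes. The 5 were Hist1h1c, Hist1h2bc, Hist2h2be, Hist3h2a and Hist3h2ba, with log2 differences of -1.05, -1.02, -1.05, -1.92 and -1.44. At 30 h, 2 of 14 were lower and 0 higher, against 5.09% and 4.51%, and these were Hist3h2ba at -1.40 and Hist2h3c1 at -1.28. Hist2h3c1 was not 2-fold lower by reads, with 0.930 RPM with anti-IgM and 1.56 RPM with BAFF, and 2.28 of its 3.17 FPKM with BAFF came from a piece with no coding base. Hist3h2ba was thus lower with anti-IgM at both times.

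Counts between both stimuli and anti-IgM alone were near those of all genes. Both stimuli against anti-IgM had 0 of 7 counted different at 8 h, where 7.37% of all genes were, and 1 of 14 at 30 h, where 6.28% were. That gene was Hist4h4, with 3.25 RPM with both stimuli and 3.11 RPM with anti-IgM. Both stimuli against BAFF had 4 of 7 different at 8 h, all lower, where 13.5% of all genes were different in either direction. These were Hist1h1c, Hist1h2bc, Hist3h2a and Hist3h2ba. At 30 h it was 3 of 13, all lower, where 9.09% were different, and these were Hist1h1c at -1.12, Hist3h2ba at -1.32 and Hist4h4, which had 3.25 RPM with both stimuli and 3.31 RPM with BAFF. These comparisons share libraries with those of anti-IgM against BAFF.

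Genes of histone supply and of DNA replication were described from lists. Of 30 DNA replication genes, 23 of 27 compared were higher and 0 lower with both stimuli at 30 h than in unstimulated cells, 23 of 27 higher and 1 lower with anti-IgM, and 15 of 26 higher and 1 lower with BAFF. The median log2 differences were 1.803, 1.90 and 1.12, where all genes had 0.02, 0.06 and 0.07. Among all genes, 8.77%, 8.94% and 5.55% were higher and 8.51%, 7.89% and 4.72% lower in these comparisons. At 8 h, 1 to 2 of the 25 or 26 list genes compared were higher and 2 to 3 lower. Of all genes, 6.2% to 12.7% were higher and 4.85% to 11.1% lower at that time. Cdc6, which loads the replicative helicase, had 21.2 FPKM with anti-IgM at 30 h, against 1.21 FPKM in unstimulated cells, and Cdc45, a helicase subunit, had 28.7 against 3.17 FPKM. Rrm2, a subunit of ribonucleotide reductase, had 57.1 against 7.29 FPKM, and Pola1, the catalytic subunit of polymerase alpha, had 34.9 against 4.504 FPKM. Summed over the list, the level at 30 h was 1466 FPKM with both stimuli, 1591 with anti-IgM and 850 with BAFF, against 420 FPKM in unstimulated cells. BAFF alone was thus the lowest of the 30 h libraries, as for the 6 histone genes, while H2A and H2B density over coding bases was highest there. A relation between these levels was not tested.

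Of 22 histone chaperone and deposition genes, 8 were higher with both stimuli at 30 h, 7 with anti-IgM and 4 with BAFF, and 0, 1 and 0 were lower, than in unstimulated cells, with medians of 0.78, 0.77 and 0.50. Among all genes 8.77%, 8.94% and 5.55% were higher in these comparisons, and 8.51%, 7.89% and 4.72% lower. Chaf1a and Chaf1b, subunits of the replication-coupled H3 and H4 chaperone CAF-1, had 25.8 and 20.99 FPKM with anti-IgM at 30 h, against 2.76 and 4.01 FPKM in unstimulated cells. Asf1b, which hands H3 and H4 to CAF-1, had 37.96 against 5.86 FPKM, and the chromatin remodeller gene Hells had 26.9 against 5.42 FPKM. Of 21 histone mRNA processing and regulation genes compared, 3 were higher with both stimuli, 1 with anti-IgM and 1 with BAFF at 30 h, and 0, 0 and 1 lower, with medians of 0.32, 0.50 and 0.16. The share that was higher was below that of all genes with anti-IgM and with BAFF. None of the genes counted lower at 30 h in the replication, chaperone and processing lists was 2-fold lower by reads over exons. Ccne1, cyclin E1, was the one with anti-IgM, at 23.0 against 7.34 FPKM. Slbp, which binds the stem-loop and was named after its values were seen, had 30.6 to 31.2 FPKM at 8 h and 65.4, 57.8 and 47.9 FPKM at 30 h with both stimuli, anti-IgM and BAFF, against 30.8 FPKM in unstimulated cells.

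Histone genes outside the clusters, which are mostly expressed through the cycle, went in both directions. Of 9 compared with anti-IgM at 30 h against unstimulated cells, 2 were higher and 1 lower, with a median log2 difference of 0.68, where 8.94% of all genes were higher and 7.89% lower. H2afx, the H2A variant marked at DNA breaks, had 46.9 against 13.8 FPKM. H3f3a and H3f3b both encode H3.3 and moved apart, with 1245 against 492 FPKM for H3f3a, which was not 2-fold by reads over exons, and 231 against 516 FPKM for H3f3b. H1f0, the linker variant of resting cells, had 2.22 to 5.09 FPKM in stimulated libraries, against 6.87 FPKM in the unstimulated one.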

How the data were processed

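RNA of 7 libraries, 1 per condition, was measured by sequencing of poly-dT primed cDNA (RNeasy, SuperScript II and Illumina TruSeq, per the labels' protocols). Per the submitters' processing notes, the authors used CASAVA 1.8.2, TopHat2 2.0.5, Bowtie2 2.0.0.7 and Cufflinks 2.0.2 with mm10. The deposited files give FPKM per assembled transcript, with a lower and an upper bound, and a merged set without levels, which supplied gene names and exons. Whether strand was kept is not given in the sources used here.

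Pieces of any length took the name of the gene with the largest same-strand exon overlap, and FPKM was summed per gene. Reads of a piece were recovered as the square of 2 FPKM over the half-interval. They came out whole within 0.05 for 93.7% to 95.2% of pieces with 1 isoform and under 200 reads, and mapped reads were recovered from their slope on piece length. Other reads were calculated from FPKM and length. Read intervals are 95% exact Poisson. Such intervals cover counting error only.

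Members and lists were chosen with earlier results of these data known. Named genes were all linker genes, core genes listed in at least 4 libraries with 5 FPKM in 1 of them or with 20 FPKM in 1 library, and per list the 4 largest counted differences with anti-IgM at 30 h against unstimulated cells. Other genes were chosen after their values were seen. Coding bases and stem-loops come from GENCODE M21, on the mm10 assembly. Steps were tested on simulated data. Python 3.11.15, numpy 2.4.6, pandas 2.3.3, scipy 1.17.1 and matplotlib 3.10.9 were used.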

Additional observations from a re-analysis of the deposited data

How the results depend on the processing

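No paired analysis was possible because each condition had 1 library and no test was run. Naming pieces on either strand moved no result by more than its limit, and rescaling the libraries, leaving out the FPKM minimum or the interval rule moved no count by over 1.5 times. Setting genes that were not listed to the FPKM of 3 reads raised the counts against unstimulated cells to 10 (both stimuli) and 8 (BAFF) at 8 h, and to 13, 14 and 14 (both, anti-IgM, BAFF) at 30 h; those of 30 h against 8 h to 10, 7 and 7; and those of both stimuli against anti-IgM to 1 at 8 h and 2 at 30 h and against BAFF at 30 h to 6. With 10 reads, added after seeing the data, the counts were 9 for both stimuli at 8 h, then 9, 12 and 9 at 30 h, and 5, 6 and 2 for 30 h against 8 h. With a 1.5-fold difference they were 4 and 1 for 30 h against 8 h with anti-IgM and BAFF, 4 for anti-IgM against BAFF at 30 h, 1 for both stimuli against anti-IgM at 8 h and 5 against BAFF at 30 h. A pseudocount of 0.1 gave 1 for BAFF at 30 h against 8 h and 1 for both stimuli against anti-IgM at 8 h, and a minimum of 5 FPKM gave 1 for anti-IgM against BAFF at 30 h. Pieces of at least 300 bases, and likewise reads over exons, gave 1 for both stimuli at 30 h against 8 h and 0 for both against anti-IgM at 30 h. Without Hist4h4 and Hist3h2a, added after seeing the data, the counts were 3 and 2 for BAFF at 8 h and 30 h against unstimulated cells, 1 for both stimuli at 30 h against 8 h and 0 for both against anti-IgM at 30 h.

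By reads over exons, 18 of the 137 log2 differences of single histone genes had the opposite sign to FPKM, 13 of them among the 90 not counted as different. The other 5, of 47 counted, were Hist3h2a with BAFF at 8 h (-1.05) and 30 h (-1.35) and Hist4h4 with anti-IgM (-0.30) and BAFF (-0.22) at 30 h, each against unstimulated cells, and Hist4h4 with both stimuli against anti-IgM at 30 h (0.0565). In both genes the lengths of the pieces differed between libraries. For Hist3h2a, reads over exons include the run-on of the unstimulated piece into Trim17 exons.

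Summed reads over exons per kilobase per 1000000 mapped reads, in place of FPKM, were for linker genes 2.79 with anti-IgM and 6.37 with BAFF at 8 h, then 3.10 with both stimuli, 3.31 with anti-IgM and 6.43 with BAFF at 30 h, against 87.2 in unstimulated cells. For core genes they were 10.4, 10.975 and 26.6 at 8 h and 36.9, 44.5 and 36.7 at 30 h (both, anti-IgM, BAFF), against 55.4. Reads over coding bases, added after seeing the data, gave linker sums of 2.72 at 8 h (anti-IgM) and 4.42, 3.92 and 6.56 at 30 h, against 90.5, and core sums of 13.3, 12.7 and 40.0, then 44.2, 51.3 and 47.5, against 54.3. Pieces of at least 300 bases gave core sums of 21.5, 17.3 and 53.0 FPKM at 8 h and 87.4 and 83.7 FPKM (anti-IgM, BAFF) at 30 h. The core sums without Hist4h4 were the same at those 5, with 79.3 FPKM for both stimuli at 30 h, against 74.1 FPKM unstimulated. These measures differ in their unit, so a move of a sum says nothing on its own. The listing minimum of about 10 reads, the copies that share reads and the lack of replicates limit all of these values.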
